A study of Mus musculus with 12 samples.

Results

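The transcripts described here are those of 10 regulators of apoptosis and necroptosis, out of 55414 gene identifiers counted in the series. They were chosen by symbol, with earlier results of these data known. All 10 were matched to the mouse Ensembl identifiers of the count table. Of these, 3 encode survival proteins of the BCL2 family (Bcl2, Bcl2l1 and Mcl1) and 7 encode proteins that drive or execute death (Bcl2l11, Bbc3, Apaf1, Fas, Ripk1, Ripk3 and Mlkl). The mice were wild type (WT), of strain C57BL/6J, and their livers and lungs were taken 6 h after surgery. Controls had sham surgery, and the others had CLP, the usual abbreviation of cecal ligation and puncture, a model of abdominal sepsis. The 4 groups were sham liver, CLP liver, sham lung and CLP lung, with 3 libraries in each, and the labels name no allele or agent besides the operation. Age is not given in the sources used here. Nor is it said whether the libraries of a group are from different mice, and p-values therefore reflect the variation among these libraries, which may be technical.

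Apoptosis begins either at the mitochondrion or at a death receptor on the cell surface. At the mitochondrion, BH3-only proteins such as BIM and PUMA bind and neutralise the survival proteins BCL2, BCL-XL and MCL1, and the cytochrome c that is then released assembles APAF1 into the apoptosome, which activates caspase-9. Necroptosis is a lytic death that runs from RIPK1 through RIPK3 to the membrane-disrupting protein MLKL, and it is known above all from cells in which a death receptor is engaged while caspase-8 is inactive.

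Total counts per library ran from 10559895 to 15854117, and all 10 genes passed the filter on low counts in every comparison. Values are in CPM, counts relative to the library total, on library sizes scaled within an organ. Organ markers fitted the labels: the summed level of 8 hepatocyte markers was 64430 to 103100 CPM in liver and 45.6 to 138.8 CPM in lung, and that of 8 alveolar type 2 markers was 26410 to 32850 CPM in lung and 45.1 to 74.5 CPM in liver. These are whole-tissue libraries, so a change in the number of cells of a type and a change in RNA per cell cannot be told apart.

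After CLP, 8 of the 10 regulators rose in liver and 8 rose in lung, and 0 of the 10 fell in either organ (edgeR's quasi-likelihood test, Benjamini-Hochberg adjusted p below 0.05, counted here as a call). Death and survival genes rose together: in liver the calls were Bcl2, Bcl2l1, Mcl1, Apaf1, Fas, Ripk1, Ripk3 and Mlkl, and in lung Bcl2l11 took the place of Bcl2. Bbc3 passed in neither organ. The counts of falling genes were also 0 at an unadjusted edgeR p under 0.05 and in DESeq2 and limma-voom. Of the rising genes, Bcl2 in liver was not called in DESeq2 (DESeq2 adjusted p = 0.0824). For comparison, 21.4% of the 12392 genes tested in liver were called higher and 21.0% lower, and 23.9% of the 15441 genes tested in lung were called higher and 24.9% lower. Because the 10 genes were chosen with earlier results of these data known, this comparison is a description and not a test. The median log2 fold change of the 10 genes was 1.35 in liver and 0.69 in lung, against medians of -0.01 and -0.03 over all genes tested. In liver the CLP libraries lay wholly above the sham libraries for 8 of the 10 genes, as they did for 28.1% of all tested genes, while 27.6% lay wholly below and none of the 10 did. In lung they lay wholly above for 9, the exception being Bcl2, against 28.6% of all tested genes above and 31.1% below.

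Scaling by library totals alone moved the median of all genes by -0.20 in liver and by -0.10 in lung, and upper-quartile scaling moved it by -0.11 in lung, on the log2 scale. Against 2647 genes higher and 2600 lower in liver, library totals gave 1689 and 3796 and the upper quartile 2122 and 3144. Against 3698 higher and 3850 lower in lung, these scalings gave 2977 and 4847, and 2929 and 4946. The sign of the change of all 10 genes stayed as given under each scaling, and the liver call of Bcl2 was the one call among the 10 genes that these scalings ended.

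**Figure D1:**
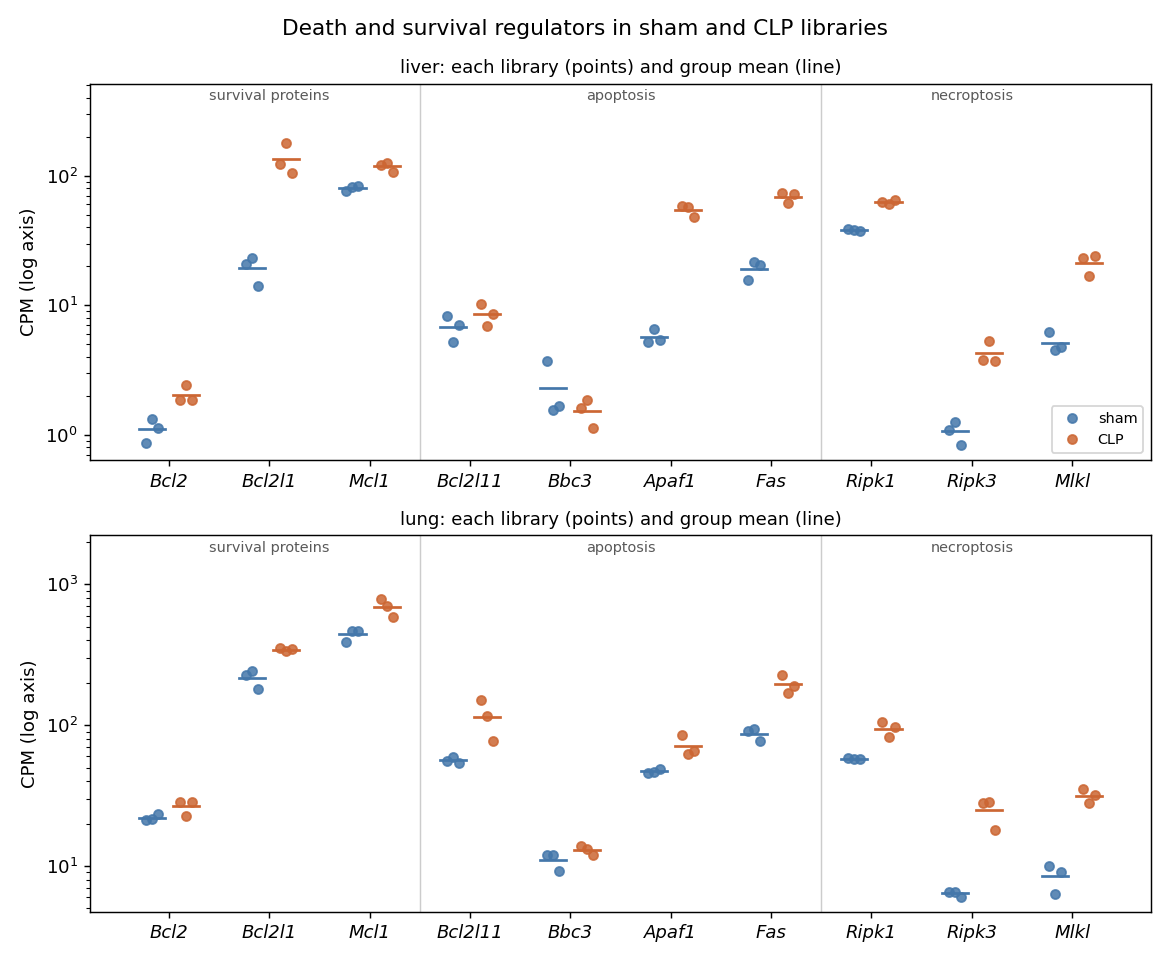
Level of each regulator in every library, in CPM on a log axis, for liver (top) and lung (bottom). Blue points are sham libraries, orange points are CLP libraries and lines are group means of 3. The CLP points of Apaf1 in liver (48.1 to 58.4 CPM) lie far above its sham points (5.24 to 6.60 CPM), while those of Bcl2l11 and Bbc3 in liver mix with their sham points.

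**Figure D2:**
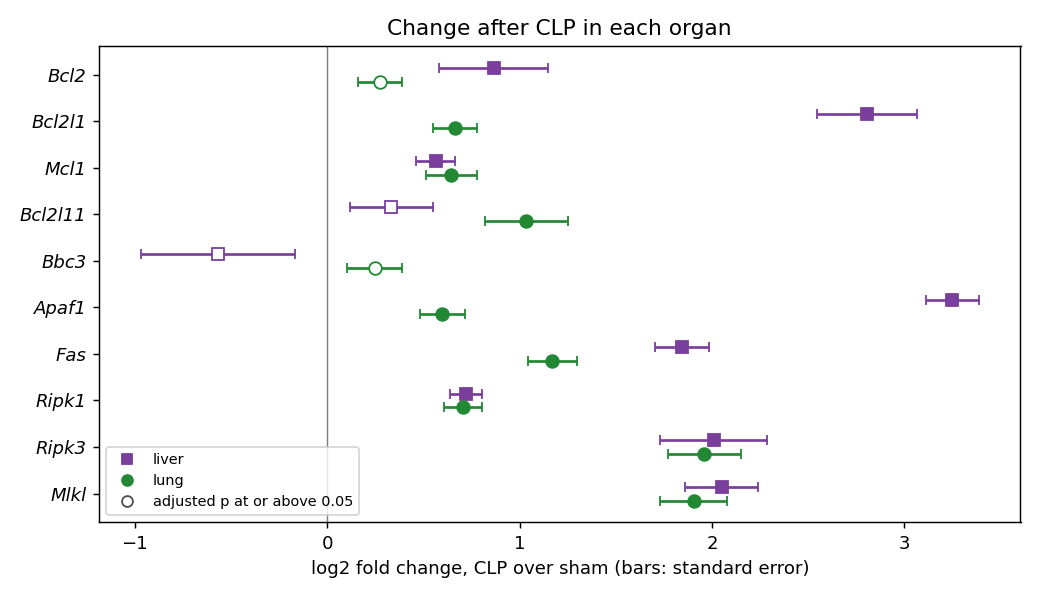
Log2 fold change of each regulator, CLP over sham, in liver (squares) and lung (circles), with bars of 1 standard error. Open symbols mark an adjusted p at or above 0.05. Ripk1, Ripk3, Mlkl and Mcl1 have nearly the same value in both organs, whereas Apaf1 (3.25 in liver, 0.60 in lung) and Bcl2l1 (2.81 and 0.66) stand apart.

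The 7 genes called higher in both organs were looked up in the RefSeq promoter table (build GRCm38.p6), which gave 10 windows of 300 bases, from 250 before to 50 after a transcription start. The windows below are shown because they belong to genes that rose in both organs, 3 of them holding a match and 2 not. Capitals mark matches, on either strand, to 3 motifs of inflammatory transcription factors: the STAT site TTCNNNGAA, the core of the interferon-stimulated response element (GAAA, any 2 bases, GAAA), and the NF-kB site. The windows are Bcl2l1 (its second of 3) at chr2:152830668-152830967 (minus strand), Fas at chr19:34290409-34290708 (plus strand), Ripk1 (its second of 2) at chr13:34002624-34002923 (plus strand), Apaf1 at chr10:91082694-91082993 (minus strand) and Mlkl at chr8:111338156-111338455 (minus strand), each written on the strand of its gene.
Bcl2l1: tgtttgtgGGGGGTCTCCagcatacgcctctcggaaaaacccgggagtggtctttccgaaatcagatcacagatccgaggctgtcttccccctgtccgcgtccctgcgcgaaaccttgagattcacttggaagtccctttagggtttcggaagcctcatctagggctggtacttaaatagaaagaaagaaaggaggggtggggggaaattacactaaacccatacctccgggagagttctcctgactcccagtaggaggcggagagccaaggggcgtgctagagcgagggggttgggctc
Fas: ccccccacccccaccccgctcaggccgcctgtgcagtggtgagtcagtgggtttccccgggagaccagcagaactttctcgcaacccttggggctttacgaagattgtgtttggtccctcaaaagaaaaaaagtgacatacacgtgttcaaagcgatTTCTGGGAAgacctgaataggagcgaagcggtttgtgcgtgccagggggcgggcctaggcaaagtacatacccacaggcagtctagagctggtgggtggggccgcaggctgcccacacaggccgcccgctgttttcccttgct
Ripk1: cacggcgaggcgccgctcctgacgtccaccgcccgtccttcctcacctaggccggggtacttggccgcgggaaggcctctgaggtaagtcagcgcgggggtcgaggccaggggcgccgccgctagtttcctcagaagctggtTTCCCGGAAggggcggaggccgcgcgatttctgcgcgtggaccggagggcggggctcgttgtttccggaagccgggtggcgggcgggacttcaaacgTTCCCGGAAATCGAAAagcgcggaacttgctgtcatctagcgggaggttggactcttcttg
Apaf1: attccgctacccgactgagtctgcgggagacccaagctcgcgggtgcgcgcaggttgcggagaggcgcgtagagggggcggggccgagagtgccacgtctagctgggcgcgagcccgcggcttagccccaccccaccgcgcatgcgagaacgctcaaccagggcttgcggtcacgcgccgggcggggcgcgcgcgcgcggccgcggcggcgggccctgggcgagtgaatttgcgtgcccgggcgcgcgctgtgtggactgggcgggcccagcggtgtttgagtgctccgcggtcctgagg
Mlkl: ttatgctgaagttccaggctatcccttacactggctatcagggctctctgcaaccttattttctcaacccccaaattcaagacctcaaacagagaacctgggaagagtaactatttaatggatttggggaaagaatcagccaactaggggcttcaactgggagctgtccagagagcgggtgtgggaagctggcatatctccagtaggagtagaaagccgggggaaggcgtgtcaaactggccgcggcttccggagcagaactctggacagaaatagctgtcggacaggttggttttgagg
The NF-kB match of Bcl2l1 began 242 bases before that start. The STAT match of Fas began 93 bases before its start. Ripk1 held STAT matches beginning 108 and 11 bases before its start, and its interferon-type core began 5 bases before it and overlapped the nearer STAT match. In Apaf1 and Mlkl none of these 3 motifs was found, nor in the windows of Mcl1 and Ripk3. The other windows of Bcl2l1 and Ripk1 held none either. Apaf1 held 3 GC boxes (GGGCGG, not capitalised), the windows of Ripk1 held 3 and 4, and that of Fas held 2. Of the 10 windows, 2 held a STAT match, 1 the interferon-type core, 1 the NF-kB site and 6 a GC box. Of all 32851 promoters in the table, 8.30% held the STAT letters, 3.44% the interferon-type core, 4.51% the NF-kB site and 35.7% a GC box. A match is a run of letters and does not show that a factor binds there.

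Bcl2l1, which encodes the survival protein BCL-XL (ENSMUSG00000007659), had the largest rise of the survival genes in liver. Its sham liver libraries 1, 2 and 3 had 20.9, 23.4 and 14.0 CPM and its CLP liver libraries 123, 179 and 104 CPM, so the lowest CLP library was several times the highest sham library. The means were 19.4 ± 4.84 and 135 ± 38.8 CPM (SD, n = 3 each), a 6.99-fold rise (log2 fold change 2.81 ± 0.26, standard error, edgeR, Benjamini-Hochberg adjusted p = 0.000226). In lung, sham libraries had 228, 242 and 181 CPM and CLP libraries 352, 334 and 346 CPM. The lung groups did not overlap either, and the rise there was 1.58-fold (0.66 ± 0.12, edgeR, Benjamini-Hochberg adjusted p = 0.00211).

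Mcl1, the short-lived survival protein MCL1 (ENSMUSG00000038612), rose by a similar amount in both organs. Sham liver had 76.1, 81.5 and 83.0 CPM and CLP liver 122, 126 and 107 CPM, with no overlap (1.48-fold, log2 0.56 ± 0.10, edgeR, Benjamini-Hochberg adjusted p = 0.00299). Sham lung had 391, 469 and 468 CPM and CLP lung 792, 702 and 585 CPM, again without overlap (1.56-fold, log2 0.65 ± 0.13, edgeR, Benjamini-Hochberg adjusted p = 0.00468). CLP lung replicate 3 was the lowest of its group.

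Bcl2, the founding member of the family (ENSMUSG00000057329), was low in liver. Its counts in the sham liver libraries were 12, 18 and 19, or 0.873, 1.33 and 1.14 CPM, and in the CLP liver libraries 24, 30 and 18, or 1.85, 2.41 and 1.85 CPM. The groups did not overlap in CPM, and the 1.82-fold rise passed the threshold (log2 0.87 ± 0.28, edgeR, Benjamini-Hochberg adjusted p = 0.0378). The call held in 4 of 14 alternative analyses and was lost when any 1 of the 6 liver libraries was left out, with edgeR adjusted p from 0.0531 to 0.117. In lung, sham libraries had 21.1, 21.5 and 23.4 CPM and CLP libraries 28.5, 22.7 and 28.7 CPM, so CLP replicate 2 lay within the sham range (log2 0.28 ± 0.12, edgeR, Benjamini-Hochberg adjusted p = 0.0797). Without that library the lung value was 0.42 (edgeR adjusted p = 0.0106). Exons of Bcl2 share 558 bases with the antisense transcript D630008O14Rik, and whether the counting used strand is not given in the sources used here.

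Of the BH3-only genes, Bcl2l11, which encodes BIM (ENSMUSG00000027381), rose in lung. Sham lung libraries had 55.3, 59.2 and 53.8 CPM and CLP lung libraries 150.2, 117 and 77.6 CPM. All CLP libraries exceeded all sham libraries, but they spread widely, with replicate 3 nearest to the sham level (2.05-fold, log2 1.03 ± 0.22, edgeR, Benjamini-Hochberg adjusted p = 0.00644). Without a filter on low counts the adjusted p was 0.0573. In liver, sham libraries had 8.29, 5.19 and 7.004 CPM and CLP libraries 10.3, 6.98 and 8.52 CPM, and the groups overlapped (log2 0.33 ± 0.22, edgeR, Benjamini-Hochberg adjusted p = 0.245).

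Bbc3, which encodes PUMA, a classical p53 target (ENSMUSG00000002083), did not pass the test in either organ. In liver, sham libraries had 3.71, 1.56 and 1.68 CPM and CLP libraries 1.62, 1.85 and 1.13 CPM, from 11 to 51 counts, and the groups overlapped (log2 -0.57 ± 0.40, edgeR, Benjamini-Hochberg adjusted p = 0.284). The value rested on sham replicate 1, without which it was -0.06. Lung had 11.95, 11.98 and 9.18 CPM in sham libraries and 13.9, 13.3 and 12.02 CPM in CLP libraries. The lung groups just failed to touch (log2 0.25 ± 0.14, edgeR, Benjamini-Hochberg adjusted p = 0.185).

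Apaf1, the scaffold of the apoptosome (ENSMUSG00000019979), had the largest fold change of the 10 genes in liver. Sham liver libraries had 5.24, 6.60 and 5.39 CPM and CLP liver libraries 58.4, 57.1 and 48.1 CPM. The groups were far apart, with means of 5.74 ± 0.746 and 54.5 ± 5.64 CPM (SD, n = 3 each), a 9.51-fold rise (log2 3.25 ± 0.14, edgeR, Benjamini-Hochberg adjusted p = 7e-06). Of all genes tested in liver, 1.36% had a larger log2 fold change. In lung, where Apaf1 started higher, sham libraries had 45.6, 46.4 and 48.8 CPM and CLP libraries 84.9, 62.8 and 65.4 CPM. The lung groups did not overlap, and the rise was 1.51-fold (log2 0.60 ± 0.12, edgeR, Benjamini-Hochberg adjusted p = 0.00400).

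Fas, the death receptor that recruits FADD and caspase-8 (ENSMUSG00000024778), rose in both organs. Sham liver had 15.6, 21.6 and 20.4 CPM and CLP liver 73.5, 61.5 and 72.0 CPM, without overlap (3.59-fold, log2 1.84 ± 0.14, edgeR, Benjamini-Hochberg adjusted p = 5.98e-05). Sham lung had 90.4, 93.8 and 76.6 CPM and CLP lung 228, 170.3 and 189 CPM, also without overlap (2.25-fold, log2 1.17 ± 0.13, edgeR, Benjamini-Hochberg adjusted p = 0.000258).

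The 3 genes of the necroptosis core rose by much the same amount in the 2 organs. Ripk1, the kinase and scaffold that directs TNF receptor signals towards survival or death (ENSMUSG00000021408), had 39.1, 37.9 and 37.6 CPM in sham liver and 62.9, 61.1 and 64.9 CPM in CLP liver. It had 58.1, 57.6 and 57.7 CPM in sham lung and 105, 81.7 and 96.6 CPM in CLP lung. Its sham libraries were the most tightly grouped of the 10 genes in both organs, with coefficients of variation of 2.14% and 0.452%, and its rises were 1.65-fold in liver (log2 0.72 ± 0.08, edgeR, Benjamini-Hochberg adjusted p = 0.000339) and 1.63-fold in lung (0.71 ± 0.10, adjusted p = 0.000758). Exons of Ripk1 share 241 bases with Serpinb6a on the other strand and 511 bases with the pseudogene Gm17084, so some of its reads may belong to either.

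Ripk3, the kinase that phosphorylates MLKL (ENSMUSG00000022221), was scarce in sham liver, with 1.09, 1.26 and 0.838 CPM from 14 to 17 counts, and had 3.77, 5.30 and 3.70 CPM in CLP liver. The liver groups did not overlap (4.02-fold, log2 2.01 ± 0.28, edgeR, Benjamini-Hochberg adjusted p = 0.000771). Sham lung had 6.503, 6.59 and 6.05 CPM and CLP lung 28.1, 28.3 and 17.9 CPM, with CLP replicate 3 the lowest of its group and still well above every sham library (3.89-fold, log2 1.96 ± 0.19, edgeR, Benjamini-Hochberg adjusted p = 0.000171).

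Mlkl, which encodes the executioner of necroptosis (ENSMUSG00000012519), followed the same course. Sham liver had 6.18, 4.52 and 4.73 CPM and CLP liver 23.2, 16.8 and 24.0 CPM, without overlap (4.14-fold, log2 2.05 ± 0.19, edgeR, Benjamini-Hochberg adjusted p = 0.000133). Sham lung had 10.0, 6.29 and 9.03 CPM and CLP lung 35.2, 27.8 and 31.7 CPM, without overlap (3.74-fold, log2 1.90 ± 0.17, edgeR, Benjamini-Hochberg adjusted p = 0.000138). In lung, Ripk3 and Mlkl had the largest log2 fold changes of the 10 genes, and 3.83% and 4.05% of all genes tested there had larger ones.

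The change in lung was then set against the change in liver in 1 model of all 12 libraries. The rises of Apaf1, Bcl2l1 and Fas were smaller in lung than in liver, 3 of the 10 genes, and 0 of the 10 were called larger in lung, nor at an unadjusted edgeR p under 0.05 or in DESeq2 or limma-voom. Over the 16111 genes tested, 8.84% were called smaller in lung and 8.89% larger, and with library totals the 1424 and 1432 genes became 965 and 1861, with a shift of the median gene of 0.11. Apaf1 differed by -2.68 ± 0.19 on the log2 scale, or 6.41-fold (edgeR, Benjamini-Hochberg adjusted p = 4.01e-06). Bcl2l1 differed by -2.17 ± 0.30, or 4.51-fold (edgeR, Benjamini-Hochberg adjusted p = 0.00039). Both passed in all 19 alternative analyses. The difference for Fas, -0.70 ± 0.20 (edgeR, Benjamini-Hochberg adjusted p = 0.0281), was less secure. It passed in 12 of the 19 and was lost without liver CLP replicate 1 or 3, liver sham replicate 1 or 3, lung CLP replicate 2, or lung sham replicate 1 or 2, with edgeR adjusted p from 0.0629 to 0.105 and values from -0.69 to -0.49.

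For the necroptosis genes the tested difference between the organs was small beside its error, at -0.04 ± 0.13 for Ripk1, -0.09 ± 0.33 for Ripk3 and -0.18 ± 0.27 for Mlkl (edgeR, Benjamini-Hochberg adjusted p = 0.893, 0.924 and 0.730). Mcl1 likewise gave 0.06 ± 0.18 (edgeR adjusted p = 0.899). Bcl2 gave -0.62 ± 0.27 (edgeR adjusted p = 0.131) and Bbc3 0.78 ± 0.41 (edgeR adjusted p = 0.222). Bcl2l11, called in lung and not in liver, did not differ between the organs at the threshold (0.67 ± 0.33, edgeR, Benjamini-Hochberg adjusted p = 0.189), but it did without lung CLP replicate 3 (0.89, edgeR adjusted p = 0.0247).

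The 2 organs also started from different levels. On library sizes scaled across all 12 libraries, 8 of the 10 transcripts were higher in sham lung than in sham liver and 2 were lower, against 44.4% and 36.5% of the 16111 genes tested. The median log2 difference was 1.17 over the 10 genes and 0.19 over all genes. Bcl2 differed most, with 1.79 ± 0.377 CPM in liver and 13.8 ± 0.783 CPM in lung (SD, n = 3 each), a log2 difference of 2.94 ± 0.19 (edgeR, Benjamini-Hochberg adjusted p = 4.57e-09). Bcl2l1 (2.13 ± 0.22), Bcl2l11 (1.68 ± 0.23), Apaf1 (1.67 ± 0.14), Ripk3 (1.24 ± 0.27), Mcl1 (1.11 ± 0.13), Bbc3 (0.91 ± 0.27) and Fas (0.82 ± 0.14) were also higher in lung. The call of Bbc3 was lost without liver sham replicate 2 (0.62, edgeR adjusted p = 0.0592) and without liver sham replicate 3 (0.64, edgeR adjusted p = 0.0631).

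Ripk1 (-0.76 ± 0.09) and Mlkl (-0.64 ± 0.21) were called lower in sham lung, but their direction depended on the scaling. Library totals moved the median gene by 1.31, gave 11983 genes higher and 2401 lower against 7146 and 5875, and turned Ripk1 to 0.55 and Mlkl to 0.66. With upper-quartile scaling, which moved the median gene by 0.25, Mlkl was -0.40 (edgeR adjusted p = 0.0894).

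Levels of different genes were compared as CPM per kilobase of exon, with exon lengths from the GENCODE annotation of an older build. In sham liver Mcl1 was the highest at 23.5 ± 1.07 per kilobase, followed by Fas at 9.32 ± 1.53, Ripk1 at 4.58 ± 0.0981 and Bcl2l1 at 4.23 ± 1.06, and the last pair overlapped. Bcl2 was the lowest in every group, at 0.122 ± 0.0253 in sham liver and 2.40 ± 0.135 in sham lung. In CLP liver Mcl1 (34.7 ± 2.89), Fas (33.5 ± 3.17) and Bcl2l1 (29.5 ± 8.45) stood together at the top and overlapped, and Apaf1 had moved from the eighth place at 0.636 ± 0.0826 to the sixth at 6.04 ± 0.625 per kilobase. In lung the top 3 were Mcl1 (129.5 ± 13.03), Bcl2l1 (47.3 ± 6.92) and Fas (42.2 ± 4.41) in sham libraries, where the latter 2 overlapped. In CLP lung they were Mcl1 (203 ± 30.4), Fas (94.9 ± 14.4) and Bcl2l1 (75.0 ± 2.00), which did not overlap. In CLP lung Bcl2l11 (14.3 ± 4.53), Mlkl (13.7 ± 1.59), Ripk1 (11.3 ± 1.41) and Ripk3 (10.8 ± 2.59) formed a middle group in which neighbours overlapped, with Apaf1 (7.87 ± 1.34), which overlapped Ripk3, and Bbc3 (6.15 ± 0.456) below.

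The survival genes together made up 58.9% to 59.7% of the summed level per kilobase of the 10 genes in sham liver and 46.8% to 58.2% in CLP liver. In lung their share was 68.8% to 72.7% in sham libraries and 62.7% to 66.0% in CLP libraries. In both organs every CLP library thus had a lower survival share than every sham library. In liver this was narrow, with 58.2% in CLP replicate 2 against 58.9% in sham replicate 1. How often such shares of other genes separate was not computed. Of single genes tested, 27.6% lay wholly below sham after CLP in liver and 31.1% in lung. Of the sum over all 10 genes in liver, Mcl1 took 48.7% to 52.2% in sham libraries and 27.1% to 28.3% in CLP libraries. Its own level rose 1.48-fold, so the lower share is not a fall of Mcl1. Bcl2l1 took 6.57% to 10.4% in sham liver and 19.6% to 29.8% in CLP liver. Fas made up 16.6% to 21.5% in sham liver and 22.8% to 30.1% in CLP liver.

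Ratios of counts within a library need no scaling between libraries, and 3 pairs of a BH3-only gene and a survival gene were tested in each organ, 6 tests in all. The log2 ratio of Bcl2l11 to Bcl2l1 in sham liver was -1.33, -2.17 and -1.0, and in CLP liver -3.58, -4.68 and -3.61. The groups did not overlap, and the means of -1.501 ± 0.60 and -3.96 ± 0.63 (SD, n = 3 each) differed by -2.46 (two-sided exact permutation p = 0.1, the smallest that 3 against 3 allows, Benjamini-Hochberg adjusted p = 0.3). In lung the same ratio was -2.05, -2.03 and -1.75 in sham libraries and -1.23, -1.52 and -2.16 in CLP libraries, which overlapped (difference 0.31, exact permutation p = 0.4, adjusted p = 0.4).

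The ratio of Bcl2l11 to Bcl2 overlapped in both organs, with a difference of -0.54 in liver (exact permutation p = 0.4, adjusted p = 0.4) and 0.71 in lung (exact permutation p = 0.2, adjusted p = 0.3). The ratio of Bbc3 to Mcl1 was lower in every CLP liver library than in every sham liver library, by -1.07 on average (exact permutation p = 0.1, adjusted p = 0.3), and by -0.63 without sham replicate 1. In lung it overlapped (-0.39, exact permutation p = 0.2, adjusted p = 0.3). No test of this design could reach 0.05.

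**Figure D3:**
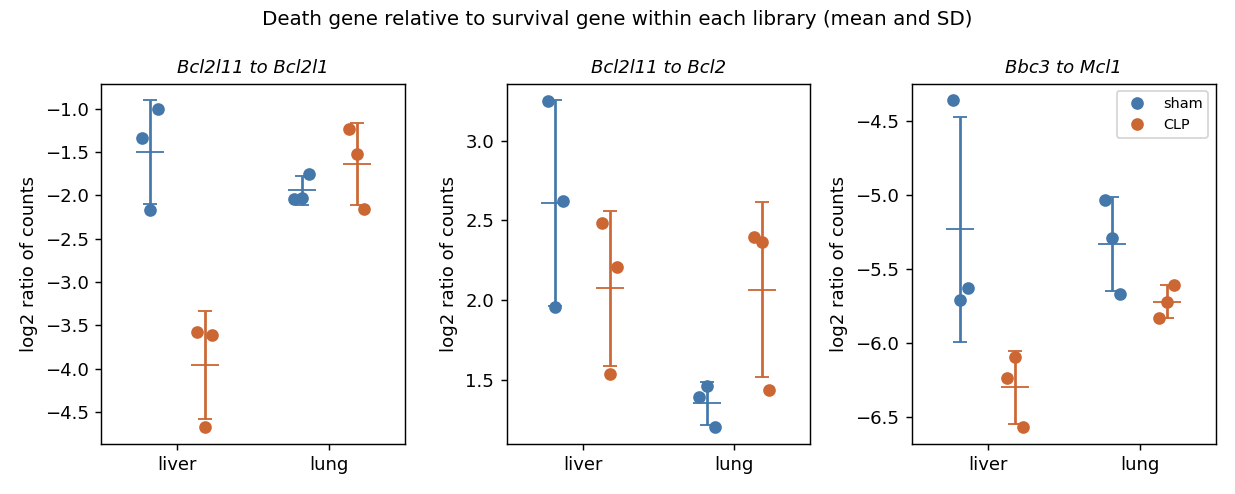
Log2 ratio of the counts of a BH3-only gene to those of a survival gene in each library of liver and lung, with the group mean and SD (n = 3 each); blue is sham and orange is CLP, and the 3 panels have axes of their own. The ratio of Bcl2l11 to Bcl2l1 in CLP liver (-4.68 to -3.58) lies below every other group, while its lung groups overlap.

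Over all 21 pairs of a death gene and a survival gene, described without a test, liver had 7 pairs with a higher ratio in every CLP library, 7 with a lower one and 7 that overlapped. The counts differed with the survival gene. Against Bcl2l1, 0 of 7 death genes gained and 5 lost, whereas against Mcl1 4 gained and 1 lost and against Bcl2 3 gained and 1 lost. The widest shifts in liver were Bbc3 to Bcl2l1 at -3.30 and Apaf1 to Mcl1 at 2.69. In lung 11 pairs had a higher ratio in every CLP library, 1 had a lower one (Bbc3 to Bcl2l1, -0.42) and 9 overlapped. Ripk3 and Mlkl gained on all 3 survival genes in lung, by 1.25 to 1.66, and so did Fas, by 0.49 to 0.90. The pairs share genes, so their counts are not independent of each other or of the changes of single genes. How often pairs of other genes separate in this way was not computed. Of single genes tested in liver, 28.1% lay wholly above sham after CLP and 27.6% wholly below. In lung these shares were 28.6% and 31.1%.

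The other genes of the pathways were described by 9 lists of 67 genes. Their counts stand beside 21.4% higher and 21.0% lower over all genes tested in liver, and 23.9% and 24.9% in lung. Each count of 0 given for a list was also 0 at an unadjusted edgeR p under 0.05 and in DESeq2 and limma-voom. Around RIPK1, RIPK3 and MLKL, 7 of 13 regulators rose in liver and 0 fell, and 9 rose and 1 fell in lung. The necroptosis sensor gene Zbp1 went from 13.1 ± 1.06 to 97.2 ± 28.5 CPM in liver (log2 2.89 ± 0.23, edgeR, Benjamini-Hochberg adjusted p = 0.000116) and from 7.29 ± 1.498 to 81.3 ± 7.68 CPM in lung (3.48 ± 0.15, adjusted p = 1.04e-05). Tnfaip3, which encodes the ubiquitin-editing protein A20, rose by 5.17 ± 0.50 in liver and 3.90 ± 0.38 in lung on the log2 scale. The kinase gene Ikbke rose by 2.55 ± 0.18 in liver and 5.01 ± 0.36 in lung, and the kinase gene Tbk1 by 0.99 ± 0.11 and 0.92 ± 0.11 (edgeR, Benjamini-Hochberg adjusted p at most 0.000457 for each of these). The list medians were 0.35 and 0.46.

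Among caspase-binding IAP proteins, Birc2 and Birc3, the ubiquitin ligases cIAP1 and cIAP2, rose in both organs. Birc3 went from 9.41 ± 0.987 to 68.7 ± 19.6 CPM in liver (log2 2.87 ± 0.21) and from 67.0 ± 5.88 to 322 ± 85.8 CPM in lung (2.26 ± 0.19), and Birc2 changed by 0.89 ± 0.10 and 0.96 ± 0.13 (edgeR, Benjamini-Hochberg adjusted p at most 0.000811 for each). Xiap, the direct caspase inhibitor, fell by 0.45 in liver (edgeR, Benjamini-Hochberg adjusted p = 0.00965). In lung Xiap passed at 0.24 ± 0.07 (edgeR, Benjamini-Hochberg adjusted p = 0.0267), but not without lung CLP replicate 1 or any 1 of the sham libraries, nor with a replicate block (adjusted p = 0.0777). The lung call was also lost with library totals (0.134, edgeR adjusted p = 0.161) and upper-quartile scaling (0.127, edgeR adjusted p = 0.177). It was lost too without the low-count filter and in the model of all 4 groups (edgeR adjusted p = 0.0809 and 0.07). The list thus had 2 higher and 1 lower of 3 in liver and 3 higher in lung, with medians of 0.89 and 0.96.

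Among death ligands, receptors and adaptors, 4 rose and 1 fell of 8 tested in liver and 5 rose and 1 fell of 10 in lung, with medians of 0.97 and 0.35. Tnf, whose product engages the receptor that feeds RIPK1, had 11 counts in all over the sham liver libraries and 196 over the CLP liver libraries (log2 4.39 ± 0.65, edgeR, Benjamini-Hochberg adjusted p = 0.00141). Its receptor gene Tnfrsf1a rose by 0.73 ± 0.11 in liver and 0.83 ± 0.09 in lung, and the death receptor gene Tnfrsf21 by 1.24 ± 0.16 in liver (edgeR, Benjamini-Hochberg adjusted p at most 0.00108 for each). In lung the TRAIL receptor gene Tnfrsf10b rose by 1.17 ± 0.18 and Cflar, the caspase-8 inhibitor c-FLIP, by 0.63 ± 0.11 (edgeR, Benjamini-Hochberg adjusted p = 0.00112 and 0.00190). Tnfrsf10b also rose in liver, by 2.36 ± 0.51 from 13 counts in all over the sham libraries (edgeR, Benjamini-Hochberg adjusted p = 0.00673).

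At the mitochondrion, 2 of 3 pore formers rose in each organ and 0 fell, with medians of 0.56 and 0.37. Bax was at 0.71 ± 0.14 in liver (edgeR, Benjamini-Hochberg adjusted p = 0.00372) and Bak1 at 0.77 ± 0.12 in lung (edgeR, Benjamini-Hochberg adjusted p = 0.00120). Bak1 in liver (0.56 ± 0.17, edgeR, Benjamini-Hochberg adjusted p = 0.0253) lost its call without CLP replicate 1 or 3 or sham replicate 2 or 3, and Bax in lung (0.37 ± 0.11, edgeR, Benjamini-Hochberg adjusted p = 0.0214) without sham replicate 1 or 2. Library totals also ended the calls of Bak1 in liver (0.362, edgeR adjusted p = 0.127) and Bax in lung (0.268, edgeR adjusted p = 0.0752). Upper-quartile scaling ended that of Bax in lung too (0.261, edgeR adjusted p = 0.0775). Of the other BH3-only genes, 1 rose and 2 fell of 5 tested in liver, and 2 rose and 1 fell of 5 in lung, with medians of -0.95 and -0.27. Pmaip1, the p53 target NOXA, rose by 1.56 ± 0.32 and 1.36 ± 0.17 (edgeR, Benjamini-Hochberg adjusted p = 0.00498 and 0.000642). Bid, which links caspase-8 to the mitochondrion, rose by 1.77 ± 0.16 in lung (edgeR, Benjamini-Hochberg adjusted p = 0.00013), whereas Bik fell by 1.63 and Bad by 0.95 in liver (edgeR, Benjamini-Hochberg adjusted p = 0.00410 and 0.00391). In lung, Bad was at -0.35 ± 0.10 (edgeR, Benjamini-Hochberg adjusted p = 0.0165), a call lost without CLP replicate 2 or sham replicate 1 or 3. It was lost in DESeq2 as well (-0.321, DESeq2 adjusted p = 0.0572).

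The other survival genes of the family were little measured in liver, where 1 of 5 was tested and 0 were called. In lung 3 rose and 1 fell of 4 tested, with a median of 1.62. Those that rose were the near-identical copies Bcl2a1a, Bcl2a1b and Bcl2a1d, between which reads can be split, and whose values (1.97 ± 0.39 for Bcl2a1b and 1.72 ± 0.31 for Bcl2a1d) are uncertain. Bcl2l2, which encodes BCL-W, fell by 0.41 (edgeR, Benjamini-Hochberg adjusted p = 0.00536).

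Among caspases and their mitochondrial activators, 2 rose and 2 fell of 9 in liver, and 2 rose and 3 fell of 9 in lung. The medians were -0.06 and 0.05. Every call was of a caspase, and the activators Cycs, Diablo and Htra2 were called in neither organ. For the list of 9 the liver counts were near the shares over all genes tested, 21.4% higher and 21.0% lower. As a share of the caspases alone the same counts are larger. In lung those shares were 23.9% and 24.9%. Casp9, the partner of APAF1 in the apoptosome, fell by 1.12 in liver and by 0.57 in lung (edgeR, Benjamini-Hochberg adjusted p = 0.00172 and 0.000629). In liver it thus went from 13.9 ± 1.81 to 6.36 ± 1.30 CPM while Apaf1 rose. In lung Casp8 rose by 0.64 ± 0.08 and Casp2 fell by 0.44 (edgeR, Benjamini-Hochberg adjusted p = 0.000383 and 0.00789).

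Of p53 and its targets, 7 of 10 rose and 0 fell in liver, and 5 rose and 2 fell in lung, with medians of 0.65 and 0.48. Trp53 itself rose by 0.68 ± 0.15 in liver, Mdm2 by 0.55 ± 0.09 in liver and 0.48 ± 0.08 in lung, and Trp53inp1 by 2.95 ± 0.31 in liver (edgeR, Benjamini-Hochberg adjusted p = 0.00697, 0.00181, 0.00184 and 0.000368). In lung the cell-cycle inhibitor gene Cdkn1a rose by 1.69 ± 0.21 and Aen by 1.07 ± 0.11 (edgeR, Benjamini-Hochberg adjusted p = 0.000585 and 0.000216). Trp53 also rose in lung, by 0.47 ± 0.11, and Aen in liver, by 0.55 ± 0.12 (edgeR, Benjamini-Hochberg adjusted p = 0.00938 and 0.00746). Cdkn1a in liver was at 2.63 ± 0.71 (edgeR, Benjamini-Hochberg adjusted p = 0.0264), a call lost without any 1 of 3 libraries. Bbc3, also a p53 target, was not called in either organ. Of FOXO factors and their targets, the group that includes regulators of Bcl2l11, 2 rose and 1 fell of 8 in liver and 2 rose and 2 fell of 8 in lung, with medians of 0.32 and 0.04. Over all genes tested, 21.4% rose and 21.0% fell in liver, and 23.9% and 24.9% in lung. Irs2 (2.02 ± 0.18) and Klf2 (1.17 ± 0.17) rose and Foxo4 fell by 0.48 in liver, and Foxo4 and Ccng2 fell by 0.79 and 0.56 in lung (edgeR, Benjamini-Hochberg adjusted p at most 0.0115 for each). Irs2 in lung (0.45 ± 0.12, edgeR, Benjamini-Hochberg adjusted p = 0.0129) lost its call without sham replicate 1. Klf2 in lung (0.93 ± 0.30, edgeR, Benjamini-Hochberg adjusted p = 0.0371) lost its call without any 1 of 3 libraries.

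**Figure D4:**
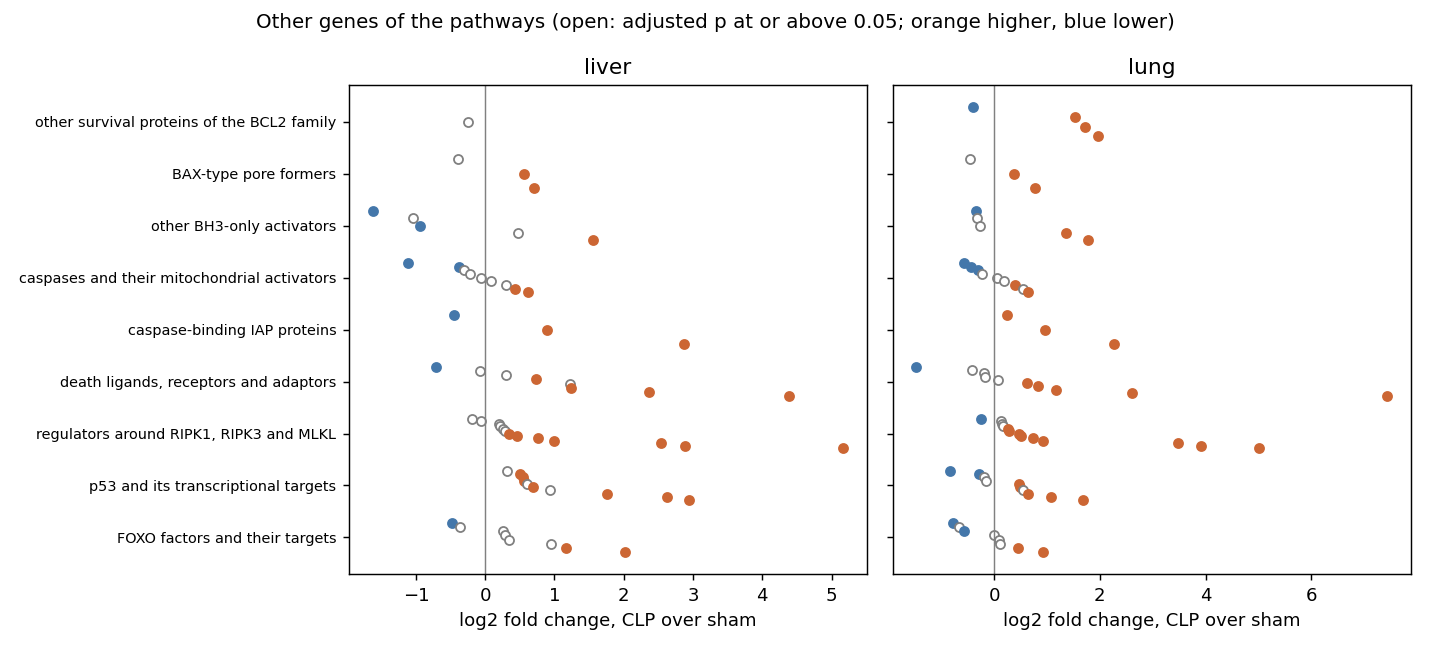
Log2 fold change, CLP over sham, of every tested gene of the 9 other pathway lists in liver (left) and lung (right). Orange points are genes called higher, blue points genes called lower and open points those with an adjusted p at or above 0.05. Calls among the regulators of RIPK1, RIPK3 and MLKL lie mostly to the right (7 higher and 0 lower of 13 in liver). Those among caspases and their mitochondrial activators lie on both sides (2 and 2 of 9 in liver). Over all genes tested in liver, 21.4% were called higher and 21.0% lower.

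Markers of several cell types also changed after CLP. The shares called over all genes tested were 21.4% higher and 21.0% lower in liver, and 23.9% and 24.9% in lung. In liver the summed level of 8 neutrophil markers was 16.3 to 18.8 CPM in sham and 152 to 209 CPM in CLP libraries, with 7 of 7 tested genes higher, and that of 8 monocyte markers was 12.9 to 15.86 and 55.8 to 59.3 CPM, with 6 of 8 higher. In lung the neutrophil sum was 950.0 to 1086 and 6287 to 8747 CPM, with 8 of 8 higher, and the monocyte sum 822 to 1015 and 1745 to 2315 CPM, with 8 of 8 higher. Within CLP lung, replicate 3 had the lowest neutrophil and monocyte sums and replicate 2 the highest (8747 and 2315 CPM). Replicate 3 was the lowest of the group for Mcl1, Bcl2l11, Bbc3 and Ripk3, and replicate 2 was the lowest for Bcl2, Bcl2l1, Apaf1, Fas, Ripk1 and Mlkl. In liver, 6 of 8 T cell, 7 of 8 B cell and 7 of 8 NK cell markers stayed under 1 CPM in every library. In lung 6 of 8 T cell and 4 of 8 NK cell markers rose, and 6 of 8 endothelial and 6 of 8 alveolar type 1 markers fell. In liver 7 of 8 sinusoidal endothelial and 5 of 8 Kupffer cell markers fell and 1 of each list rose. Of the alveolar macrophage markers, which share Marco with the Kupffer list and Chil3 with the monocyte list, 4 of 7 tested rose and 1 fell in liver, with sums of 22.9 to 44.2 CPM in sham and 136 to 199 CPM in CLP libraries, and 1 of 8 rose and 3 fell in lung. In liver 5 of 7 tested alveolar type 2 markers rose, with sums of 45.1 to 49.0 and 60.5 to 74.5 CPM. Of 7 erythroid markers, a list added after values were seen, 4 of 6 tested fell in lung, with sums of 1134 to 1809 and 805 to 1002 CPM. The part of these shifts in the changes of the 10 genes was not tested. The liver level of 6 alveolar type 2 markers (Lyz2 and Etv5 left out) was set against their mean lung level. The median over the 6 was 0.0432% to 0.0843% in sham liver and 0.186% to 0.293% in CLP liver libraries. Lung RNA at that share would give at most 1.62% of the measured level of any of the 10 genes. Whether liver libraries held lung RNA was not tested.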

How the data were processed

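The deposited values are the authors' raw counts per gene, whole numbers without any scaling, over 55414 gene identifiers and 12 libraries of total RNA. The kit was stranded, per the labels' protocols. Per the submitters' processing notes the tools were FastQC, STAR 2.7.10a, featureCounts and DESeq2 and the build mm39. The release of the annotation and the strand setting are not given in the sources used. Symbols came from a table of gene names, which matched 52081 identifiers. Replicate pairs differed by 5.28 to 37.6 per degree of freedom (chi-square over genes with 20 counts or more), so each library counted as 1.

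The test was edgeR's (version 4.0.16, R 4.3.3), after its filter on low counts (minimum 10 in a library, 15 in total) and scaling by the trimmed mean of M values. The quasi-likelihood test was run on the 6 libraries of an organ, and on all 12 for differences between organs. P-values are two-sided and Benjamini-Hochberg adjusted over all tested genes, with a threshold of 0.05. Errors of log2 fold changes are the change divided by the root of the F statistic, an approximation. DESeq2 1.42.0, limma-voom (limma 3.58.1), other scalings, no filter, a replicate block, a model of all 4 groups and leaving out each library were the alternatives, and the analysis was tested on simulated data.

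The 10 genes, the 9 pathway lists and the 13 marker lists were chosen with earlier results of these data known. Named genes are the 10 regulators and, for each pathway list and organ, up to 3 called genes with the lowest p. Values of such genes in the other organ are given beside them, and some genes that this rule names are left out of the text. Counts of members are described beside those over all genes, with no set test. The depth, from 10559895 to 15854117 counts, left 11 to 51 counts a library for Bbc3, 12 to 30 for Bcl2 and 14 to 66 for Ripk3 in liver.

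Exon lengths and overlaps came from GENCODE M21, which is on GRCm38 rather than mm39, and the positions printed are those of RefSeq promoter windows in GRCm38.p6 alone. Among the pathway genes named, exons of Bad, Bak1, Bid and Casp9 overlap a coding gene of the opposite strand, those of Cdkn1a, Ikbke and Irs2 a non-coding or unconfirmed one there, and those of Bax, Bcl2a1b and Bcl2l2 another annotated gene on their own strand, so their values are uncertain to that extent.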

Additional observations from a re-analysis of the deposited data

Results flagged for a closer look

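Changes after CLP that differed between the organs in the model of all 12 libraries (lung minus liver, log2) are listed here for a closer look, each with the adjusted p of edgeR's quasi-likelihood test after Benjamini-Hochberg adjustment. Of the 10 regulators these were Apaf1 at -2.68 (4.01e-06), Bcl2l1 at -2.173 (0.00039) and Fas at -0.698 (0.0281). All 3 rose in both organs and rose more in liver.

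Of the other pathway genes, Trp53inp1, a p53 target that promotes death and autophagy, differed by -2.422 (0.00137), the insulin signalling adaptor gene Irs2 by -1.599 (0.000494), the death receptor gene Tnfrsf21 by -1.206 (0.00149) and Ccng2, an atypical cyclin, by -0.847 (0.00399). The differences in the other direction were those of the kinase gene Ikbke at 2.434 (0.00144), the BH3-only genes Bik at 1.273 (0.0216) and Bid at 1.268 (0.00925), Casp8 at 0.674 (0.0454) and Xiap at 0.662 (0.00305). Xiap is the one of these whose changes had opposite signs with a call in each organ, -0.45 in liver and 0.24 in lung. Its lung call was lost without any 1 of 4 libraries, and also with library totals, upper-quartile scaling, no filter, a replicate block or the model of all 4 groups.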

How the results depend on the processing

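Over the alternatives for the 2 comparisons of CLP with sham, all 10 regulators kept their sign, and the 7 called in both organs (Bcl2l1, Mcl1, Apaf1, Fas, Ripk1, Ripk3 and Mlkl) passed in 14 of 14 in each. Bcl2 in liver passed in 4 of 14, and Bcl2l11 in lung in 13 of 14. With library totals, 1689 genes were called higher in liver. For the difference between organs, the regulators called larger in lung numbered 0 to 1 when a library was left out, the 1 being Bcl2l11 without lung CLP replicate 3. Values near 0 changed sign there: Mcl1 ranged from -0.053 to 0.175, Ripk1 from -0.126 to 0.055 and Ripk3 from -0.19 to 0.17 when a library was left out, and library totals gave 0.079 for Ripk1 and 0.032 for Ripk3. Between sham lung and sham liver, library totals called 11983 genes higher and 2401 lower and 0 regulators lower, with Ripk1 at 0.551 and Mlkl at 0.663, and upper-quartile scaling called 1 regulator lower. That scaling shifts all genes alike; the cause of the other moves was not tested. Of 686 results for named pathway genes, each in an organ where the rule named the gene, 25 lost their call. Among them were those of Bak1 in liver and Bad, Bax, Irs2 and Xiap in lung.

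The labels do not say what a replicate number marks. Deviations from group means of same-numbered libraries correlated at -0.013 to 0.173, not above 0.1 in every pair, so the numbers were not taken to pair libraries. Every library correlated best with its own number between sham and CLP liver and between CLP liver and CLP lung (6 of 6 each), and 4 of 6 did so in the other 2 comparisons, a hint from the data and not from the design. With a replicate block, 2649 genes were higher and 2596 lower in liver, 3344 and 3526 in lung, and the number of regulators called was the same, 8 in each organ.

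Few counts limit Bcl2, Bbc3 and Ripk3 in liver, and 3 libraries a group limit the ratios, whose tests could not pass.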

Other observations

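Other genes of the lists also differed in their response between the organs. They were picked after their values were seen. Eda2r, a p53-induced receptor of the TNF receptor family, rose in liver (log2 1.76 ± 0.42) and fell in lung (-0.84 ± 0.29), and differed by -2.63 (edgeR, Benjamini-Hochberg adjusted p = 0.00378). Ccng1, a p53-induced cyclin, was at 0.50 ± 0.12 in liver and -0.28 ± 0.10 in lung and differed by -0.81 (edgeR, Benjamini-Hochberg adjusted p = 0.00415). The lung calls of Eda2r and Ccng1 were lost without any 1 of 5 and 6 libraries, respectively. Otulin, a deubiquitinase of linear chains, differed by 0.66 and Traf2, an adaptor of the TNF receptor, by -0.63 (edgeR, Benjamini-Hochberg adjusted p = 0.0343 and 0.0473). Tnf had 18 counts over the sham lung libraries and 3055 over the CLP lung libraries, and its mean in CLP lung was 81.3 ± 60.8 CPM (SD, n = 3), a spread that shows how unequal the 3 libraries were.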
